A study of Homo sapiens with 10 samples.

Results

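The metallothioneins are a family of small, cysteine-rich proteins that bind zinc and copper. The genes described here are MT2A, MT1X, MT1E, MT1F, MT1G and MT1M, chosen by their Ensembl gene IDs. All 6 are listed in a ribosome profiling table of 20289 genes. Ribosome profiling sequences the mRNA fragments that ribosomes protect from nuclease, so the level of a gene depends both on how much of its mRNA is present and on how it is translated. The samples were 10 libraries of PANC-1 and CFPAC-1, established lines of human pancreatic ductal carcinoma. PANC-1 was given 1 µM imidazole ketone erastin (IKE) in 4 libraries and 0.1% DMSO, the vehicle, in 2. CFPAC-1 was given 10 µM IKE in 2 libraries and 0.1% DMSO in 2. IKE is an erastin derivative that blocks cystine import and thereby starves cells of glutathione. Only cells that survived were collected, so the IKE groups describe survivors and not the whole culture. How long the cells were exposed is not settled, since a label states 24 h and the extraction protocol speaks of treatment on successive days. No IKE dose was common to both lines, and any difference between their responses changes line and dose together.

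Metallothioneins hold metal ions through clusters of cysteine thiols, buffer free zinc, bind excess copper and react with oxidants, which releases the metal. Their transcription is driven by zinc through MTF1, a zinc-finger factor that binds metal response elements (MREs) in their promoters, and also responds to glucocorticoids and oxidative stress. MT2A is made in most tissues, and the MT1 genes differ from each other in where they are made.

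The 6 genes lie together on the long arm of chromosome 16, in a span of 75.6 kb (GRCh38.p14, RefSeq annotation). MT2A (ENSG00000125148) occupies chr16:56608584-56609497 at one end, and MT1X (ENSG00000187193) occupies chr16:56682470-56684196 at the other. Between these ends lie MT1E (ENSG00000169715) at chr16:56625781-56627112, MT1M (ENSG00000205364) at chr16:56632659-56633981, MT1F (ENSG00000198417) at chr16:56657959-56659303 and MT1G (ENSG00000125144) at chr16:56666730-56668065. The same span holds 9 protein-coding metallothionein genes and 5 metallothionein pseudogenes in that annotation. The coding sequences are short and nearly identical. Reads can therefore match several members, and how they were divided is not given in the sources used here. Each member's value is uncertain to that extent, and so is the summed FPKM of the 6 where members differ in length.

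Promoter sequences are shown for MT2A and MT1X, because these are members whose levels moved together across the libraries and whose promoters are in the RefSeq-derived table used here (GRCh38.p14), which matched 2 of the 6. Each runs from 250 bases before the transcription start to 50 bases after it, 5′ to 3′ on the plus strand. Capitals mark matches to the MRE core, searched as TGCACNC and TGCGCNC on both strands. The MT2A promoter is chr16:56608334-56608633 and the MT1X promoter is chr16:56682220-56682519.
MT2A: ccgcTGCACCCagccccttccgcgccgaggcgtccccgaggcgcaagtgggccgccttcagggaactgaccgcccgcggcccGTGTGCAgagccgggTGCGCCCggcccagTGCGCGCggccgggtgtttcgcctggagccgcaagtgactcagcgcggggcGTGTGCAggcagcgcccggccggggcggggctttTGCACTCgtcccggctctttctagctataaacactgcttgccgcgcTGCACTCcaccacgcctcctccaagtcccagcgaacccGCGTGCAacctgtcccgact
MT1X: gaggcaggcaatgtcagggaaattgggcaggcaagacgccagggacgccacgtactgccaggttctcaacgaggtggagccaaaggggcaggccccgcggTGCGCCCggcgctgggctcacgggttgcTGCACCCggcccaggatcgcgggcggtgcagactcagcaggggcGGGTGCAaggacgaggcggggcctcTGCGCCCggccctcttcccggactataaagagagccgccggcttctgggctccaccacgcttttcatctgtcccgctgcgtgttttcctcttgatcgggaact

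The MT2A promoter held 8 MRE core matches and the MT1X promoter held 4. Of 34796 promoters of the same length, 29.5% held at least 1 match, 0.598% held at least 4 and 0.0201% held at least 8. These shares were not matched for base composition. Other metallothionein promoters in the table held 8 matches (MT1H), 3 (MT1B) and 3 (MT4). Both promoters also held TATAAA on the gene's strand, with its first base at -29 in MT2A and at -30 in MT1X, a motif in 7.37% of promoters. The antioxidant response element core TGACNNNGC, the pattern bound by NRF2, matched once in each and in 13.3% of promoters. In MT2A that match ran over positions -104 to -96 and overlapped TGACTCA, the AP-1 motif, which 4.96% of promoters held and the MT1X promoter did not. A match describes letters in this window and not binding in these cells.

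**Figure D1:**
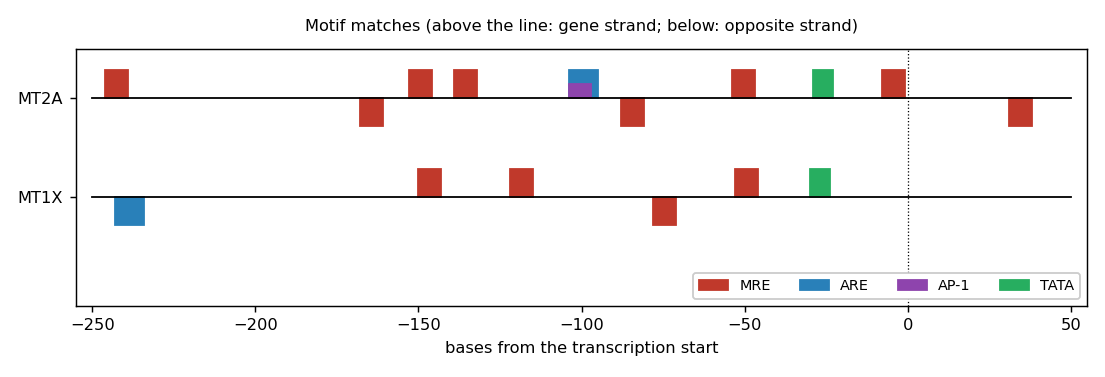
Positions of motif matches in the MT2A and MT1X promoters, in bases from the transcription start (horizontal axis), with matches on the gene strand above each line and those on the opposite strand below it. MT2A has 8 MRE core matches (red) and MT1X has 4, and each has a TATAAA match (green) just before the start.

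The libraries differed in depth. Values are FPKM, fragment counts that the authors scaled for gene length and for the mapped total of the library, and are listed below in replicate order. Taking CFPAC-1 DMSO replicate 1 as 1, relative depth was estimated at 0.21 to 0.876 in PANC-1 IKE, 0.327 to 0.507 in PANC-1 DMSO, 0.975 to 1.17 in CFPAC-1 IKE and 0.917 to 1 in CFPAC-1 DMSO. The estimate for PANC-1 IKE replicate 2 is uncertain, since it depended on the settings used. Absolute depth is unknown, so a value of 0 is given as listed at 0. The 10 most abundant genes took up 9.29%, 16.2%, 12.2% and 23.1% of all FPKM in the 4 PANC-1 IKE libraries, where the other libraries had 8.51% to 9.64%. Genes abundant in CFPAC-1 and at 0 in PANC-1 DMSO replicate 2 (26 genes) stood at 0.87% of their CFPAC-1 level in PANC-1 IKE replicate 4 and at no more than 0.213% in the other PANC-1 libraries. The table gives IDs without names, and none could be matched to a name here except the 6 members, whose names come with the choice of genes. Markers of the lines and other genes of metal handling were therefore not examined. The labels call the replicates biological.

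MT2A, the major human isoform, carried most of the metallothionein footprints in both lines. It had 1526, 2740, 2245 and 3062 FPKM in the 4 PANC-1 IKE libraries, against 2727 and 1381 FPKM in PANC-1 DMSO. In CFPAC-1 it had 4518 and 2332 FPKM with IKE, against 3109 and 1787 FPKM with DMSO. IKE and DMSO values overlapped in each line, and replicates of a group lay as far apart as the groups did. MT2A ranked between 18 and 130 among all genes of a library, the highest in CFPAC-1 IKE replicate 1 and the lowest in PANC-1 IKE replicate 1.

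MT1E, a widely made MT1 isoform, was the next most abundant. MT1E had 726, 1300, 1196 and 1241 FPKM in the 4 PANC-1 IKE libraries, against 1228 and 695 FPKM in PANC-1 DMSO. With CFPAC-1 the values were 2207 and 1496 FPKM with IKE, against 1581 and 1247 FPKM with DMSO. Here too IKE and DMSO overlapped in each line, and PANC-1 IKE replicate 1 stood low beside the other 3 IKE libraries, as it did for MT2A.

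MT1X, an MT1 isoform at a lower level, was measured at 160, 275, 238 and 178 FPKM in the 4 PANC-1 IKE libraries, against 210 and 95.7 FPKM in PANC-1 DMSO. In CFPAC-1, MT1X had 367 and 287 FPKM with IKE, against 243 and 169 FPKM with DMSO. Both CFPAC-1 IKE libraries lay above both DMSO libraries for MT1X, the single member whose IKE and DMSO values were fully apart in a line. Of the 13125 genes tested, 20.2% were fully apart with IKE higher and 22.3% with IKE lower in CFPAC-1. In PANC-1, where no member was fully apart, those shares were 10.2% and 12.2%.

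MT1F, another MT1 isoform, differed in level between the lines. It was at 9.17, 13.3, 24.1 and 3.8 FPKM in the 4 PANC-1 IKE libraries, against 1.66 and 5.17 FPKM in PANC-1 DMSO. CFPAC-1 had 89.7 and 44.8 FPKM with IKE, against 51.4 and 33.3 FPKM with DMSO. Every PANC-1 library lay below every CFPAC-1 library, whichever treatment it had received, as was the case for 25% of all genes tested.

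MT1M and MT1G were at or below 27.5 FPKM in every library and listed at 0 in several. MT1M was listed at 0, 0, 6.38 and 17 FPKM in the 4 PANC-1 IKE libraries, against 9.48 and 2.63 FPKM in PANC-1 DMSO. In CFPAC-1, MT1M was at 10.5 and 1.71 FPKM with IKE, against 4.34 and 7.14 FPKM with DMSO. MT1G was listed at 0 in 7 of the 10 libraries. It was at 27.5 FPKM in PANC-1 IKE replicate 2, at 16.1 FPKM in CFPAC-1 IKE replicate 1 and at 4.62 FPKM in CFPAC-1 DMSO replicate 2. For both genes the IKE and DMSO values overlapped in each line.

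**Figure D2:**
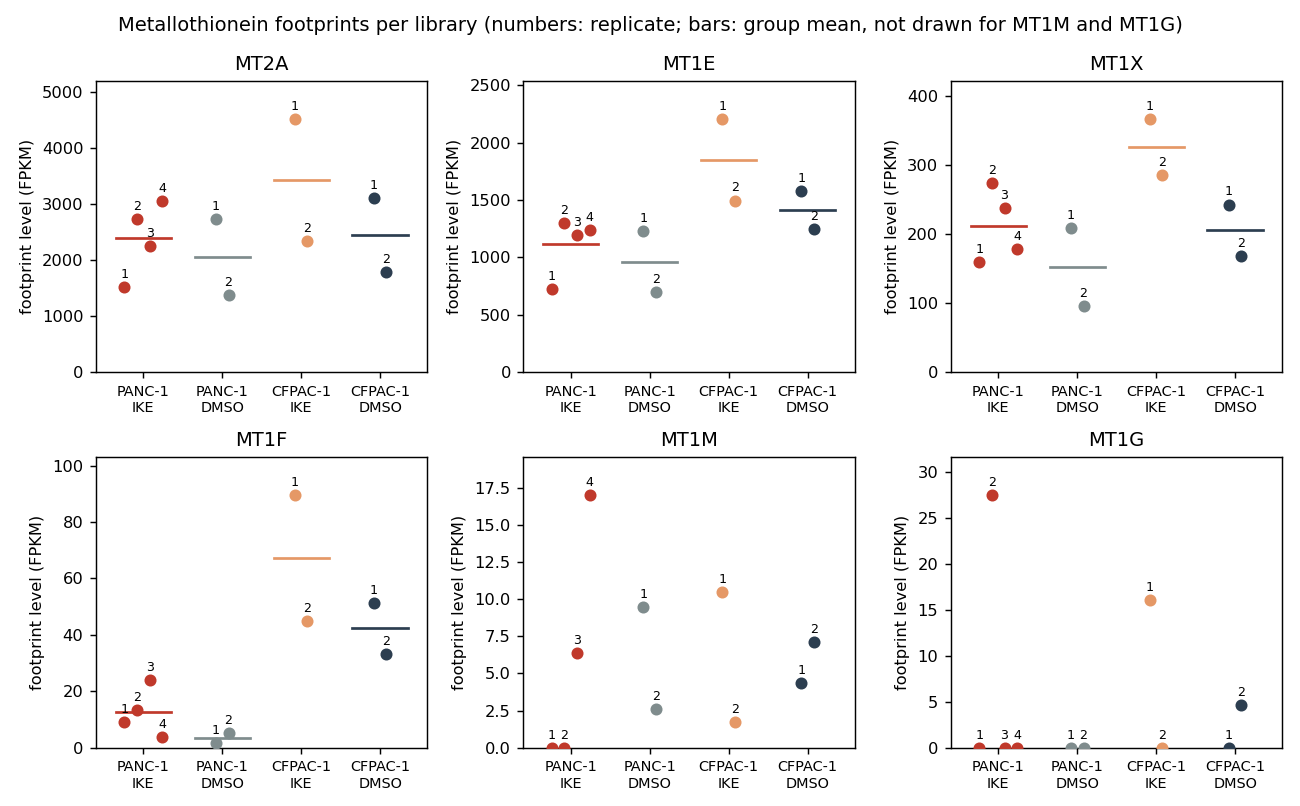
Footprint level in FPKM (vertical axis, a separate linear scale for each gene) of the 6 metallothioneins in each of the 10 libraries, with replicate numbers above the points and bars at the group means for all but MT1M and MT1G. IKE and DMSO points overlap in each line for MT2A and MT1E, the CFPAC-1 IKE points of MT1X lie above its DMSO points, and all PANC-1 points of MT1F lie below its CFPAC-1 points.

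The 6 genes together held 2420, 4356, 3710 and 4502 FPKM in the 4 PANC-1 IKE libraries, against 4175 and 2179 FPKM in PANC-1 DMSO. In CFPAC-1 the sum was 7208 and 4161 FPKM with IKE, against 4989 and 3248 FPKM with DMSO. Both pairs of groups overlapped. The mean sum was 3747 ± 949 FPKM in PANC-1 IKE (SD, n = 4) and 3177 ± 1411 FPKM in PANC-1 DMSO (SD, n = 2), a ratio of 1.18. It was 5684 ± 2155 FPKM in CFPAC-1 IKE and 4118 ± 1231 FPKM in CFPAC-1 DMSO (SD, n = 2 each), a ratio of 1.38. The difference of the means was smaller than either SD in PANC-1, and in CFPAC-1 it was smaller than the SD of the IKE group but larger than that of the DMSO group. In DMSO the PANC-1 mean was 0.771 of the CFPAC-1 mean, and those groups overlapped too. On the log2 scale that ratio was -0.37, and it ranged from -0.92 (without PANC-1 DMSO replicate 1) to 0.020 (without PANC-1 DMSO replicate 2) when 1 library was left out. The PANC-1 ratio rested on both DMSO libraries: on the log2 scale it was 0.24 with all libraries, 0.78 without DMSO replicate 1 and -0.16 without DMSO replicate 2. The CFPAC-1 ratio was 0.47 with all libraries, 0.015 without IKE replicate 1 and 0.81 without either IKE replicate 2 or DMSO replicate 1.

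MT2A, MT1E and MT1X made up 98.4% to 99.7% of the sum in every library. MT2A alone held 60.5% to 68% in PANC-1 IKE, 63.4% and 65.3% in PANC-1 DMSO, 56% and 62.7% in CFPAC-1 IKE and 55% and 62.3% in CFPAC-1 DMSO. MT1F was the minor member whose share differed by line, at 0.0844% to 0.649% in PANC-1 IKE, 0.0398% and 0.237% in PANC-1 DMSO, 1.08% and 1.24% in CFPAC-1 IKE and 1.03% in both CFPAC-1 DMSO libraries. The ratio of MT1E to MT1X, both per length, was 4.54, 4.73, 5.02 and 6.98 in the 4 PANC-1 IKE libraries, against 5.86 and 7.26 in PANC-1 DMSO. In CFPAC-1 that ratio was 6.01 and 5.22 with IKE, against 6.5 and 7.4 with DMSO. MT1X thus held a larger part relative to MT1E in both CFPAC-1 IKE libraries and in 3 of the 4 PANC-1 IKE libraries than in any DMSO library of the same line. This comparison was chosen after its values were seen and was not tested.

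**Figure D3:**
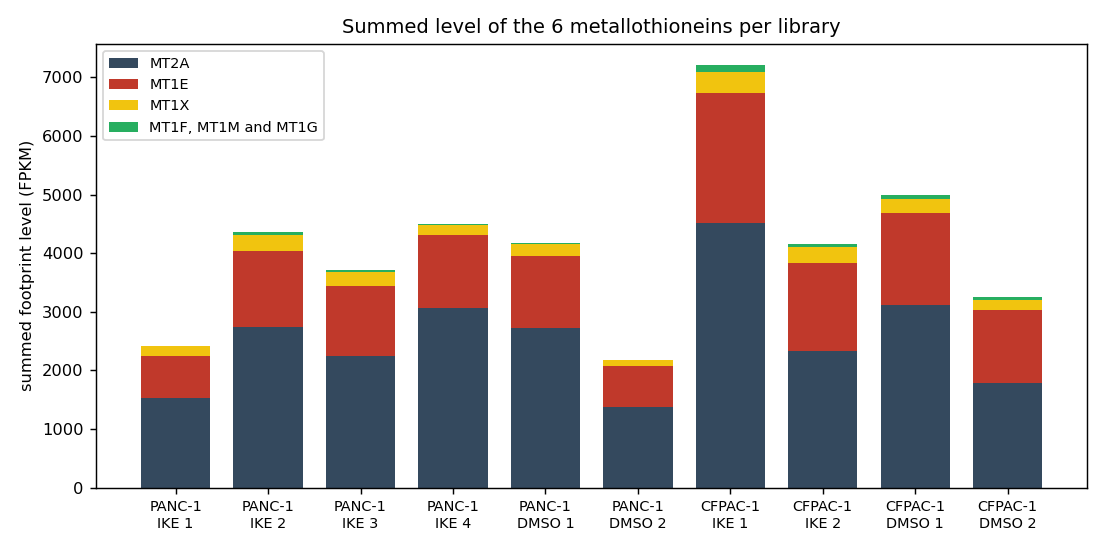
Summed footprint level of the 6 metallothioneins in FPKM (bar height) in each library, divided into MT2A, MT1E, MT1X and the other 3 members together. MT2A and MT1E fill most of every bar, the tallest bar is CFPAC-1 IKE replicate 1 at 7208 FPKM, and the lowest is PANC-1 DMSO replicate 2 at 2179 FPKM.

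The first comparison asked whether surviving PANC-1 cells had other metallothionein levels with 1 µM IKE than with DMSO. Differences were tested on log2(FPKM + 1) with limma over the 13125 genes that averaged 1 FPKM or more, with a weight for each line's spread and Benjamini-Hochberg adjustment. All log2 fold changes below are on that scale. For low values it can understate a change, and it can also differ from the ratio of group means in size or direction. None of the 6 members was called at an adjusted p under 0.05. MT1F had the largest fitted log2 fold change, 1.51 ± 0.75 (SE, 95% CI -0.14 to 3.15, limma adjusted p = 0.479), and its lowest IKE library lay below its higher DMSO library. That value was 0.90 without DMSO replicate 1, 2.11 without DMSO replicate 2 and 2.07 with a weight for each library. MT1X had 0.55 ± 0.43 (95% CI -0.40 to 1.5, limma adjusted p = 0.654). MT2A had 0.25 ± 0.62 (95% CI -1.11 to 1.62, limma adjusted p = 0.909) and MT1E 0.24 ± 0.42 (95% CI -0.69 to 1.17, limma adjusted p = 0.866). The intervals of MT2A, MT1E and MT1X include both no change and a doubling, so these 6 libraries do not separate such outcomes. MT1M had -0.86 ± 1.38 (limma adjusted p = 0.846), though its group means were 5.855 FPKM with IKE and 6.055 FPKM with DMSO. That value was -2.32 with a pseudocount of 0.1 and -0.24 with a pseudocount of 5. MT1G, listed at 0 in both DMSO libraries, has no fold that can be read, since its fitted value depends on the pseudocount too. limma called 0% of all genes in this comparison, with 1429 genes (10.9%) at an unadjusted p under 0.05 and 2 calls in a limma fit of PANC-1 alone. On simulated data the same fit called 0 of 200 genes changed 2-fold in PANC-1, so a missing call there says little about a doubling. The median of the 6 fitted values, those of MT1G and MT1M included, was 0.40, against -0.02 over all genes tested.

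The second comparison asked the same of CFPAC-1 with 10 µM IKE. Again none of the 6 members was called, where 0.35% of all genes were (35 higher and 11 lower). MT1X had the smallest p among the members, with a log2 fold change of 0.68 ± 0.23 (SE, 95% CI 0.18 to 1.18, limma unadjusted p = 0.0122, adjusted p = 0.273), higher in 2 of 2 IKE libraries. An unadjusted p under 0.05 was reached by 11.7% of all genes. The limma unadjusted p of MT1X was 0.124 without weights and 0.0148 with the line alone. Its log2 fold change ranged from 0.41 to 0.94 when 1 library was left out. On simulated data the weighted fit called more unchanged genes in CFPAC-1 than the threshold allows, so this interval can be too narrow. MT1F had 0.60 ± 0.39 (95% CI -0.26 to 1.47, limma adjusted p = 0.605), MT2A 0.46 ± 0.33 (95% CI -0.26 to 1.18, limma adjusted p = 0.648) and MT1E 0.37 ± 0.22 (95% CI -0.12 to 0.86, limma adjusted p = 0.571). MT2A's value was -0.015 without IKE replicate 1, the library with the highest level of MT2A, MT1E, MT1X and MT1F. MT1G had 0.80 ± 1.19 (limma adjusted p = 0.871) and MT1M -0.24 ± 0.72 (limma adjusted p = 0.952). MT1G was listed at 0 in 1 library of each group, and the mean of MT1M was not lower with IKE (6.095 FPKM against 5.74 FPKM with DMSO). The median of the 6 fitted values was 0.53, against -0.01 over all genes tested, and 5 of 6 were positive, as were 47.1% of all genes. Of these 5, MT2A and MT1G turned negative when 1 library was left out, MT1G to -1.25 without IKE replicate 1 and to -0.44 without DMSO replicate 1. Since MT2A, MT1E and MT1X moved together from library to library, these are not 5 separate observations.

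The third comparison, which subtracted the IKE effect in CFPAC-1 at 10 µM from that in PANC-1 at 1 µM, called none of the 6 members and 0.0229% of all genes. The difference was -0.21 ± 0.70 for MT2A (95% CI -1.75 to 1.34), -0.14 ± 0.48 for MT1E (95% CI -1.18 to 0.91) and -0.13 ± 0.49 for MT1X (95% CI -1.20 to 0.94), with limma adjusted p from 0.938 to 0.944. For MT1F it was 0.90 ± 0.84 (95% CI -0.96 to 2.76, limma adjusted p = 0.7). These intervals are too wide to say that the lines responded alike.

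The fourth comparison, between the lines under DMSO alone, called MT1F. MT1F averaged 3.42 ± 2.48 FPKM in PANC-1 and 42.4 ± 12.8 FPKM in CFPAC-1 (SD, n = 2 each), 12.4-fold lower in PANC-1 as a ratio of means. The log2 difference was -3.39 ± 0.67 (SE, 95% CI -4.86 to -1.91, limma adjusted p = 0.00242), lower in 2 of 2 PANC-1 libraries. This comparison called 37.9% of all genes and 21.1% lower in PANC-1, and a difference at least as large in size was found for 5.75% of all genes. Over the alternative settings the adjusted p of MT1F ran from 0.00111 to 0.0566, and the call was lost in 1 of 21, without PANC-1 DMSO replicate 1 (-2.78, limma adjusted p = 0.0566). The genes abundant in CFPAC-1 stood at 0.213% of their CFPAC-1 level in PANC-1 DMSO replicate 1 and, by their choice, at 0 in replicate 2. At 0.213% of its mean CFPAC-1 level, MT1F would stand at 0.117 FPKM in PANC-1 DMSO replicate 1, where it had 1.66 FPKM. What part such signal has in the PANC-1 level of MT1F was not tested.

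The other members were not called between the lines. MT1E was at 1228 and 695 FPKM in PANC-1 DMSO, below 1581 and 1247 FPKM in CFPAC-1 DMSO, with a difference of -0.60 ± 0.38 on the log2 scale (SE, limma adjusted p = 0.237). Its groups did not overlap, which held with PANC-1 lower for 36.8% of all genes. MT1X had -0.51 ± 0.39 (limma adjusted p = 0.329) and MT2A -0.28 ± 0.56 (limma adjusted p = 0.728), both with overlapping groups. MT1M had -0.10 ± 1.23 (limma adjusted p = 0.964), and MT1G was listed at 0 in both PANC-1 DMSO libraries and in CFPAC-1 DMSO replicate 1. By group mean, MT2A and MT1E had the same order of levels, CFPAC-1 IKE, CFPAC-1 DMSO, PANC-1 IKE and PANC-1 DMSO from high to low. In MT2A every pair of neighbours in that order overlapped. In MT1E, PANC-1 IKE and CFPAC-1 DMSO overlapped by 1 library, with 1300 FPKM against 1247 FPKM. The order for MT1F was CFPAC-1 IKE (67.2 FPKM), CFPAC-1 DMSO (42.4), PANC-1 IKE (12.6) and PANC-1 DMSO (3.42), with a gap without overlap between the lines only.

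**Figure D4:**
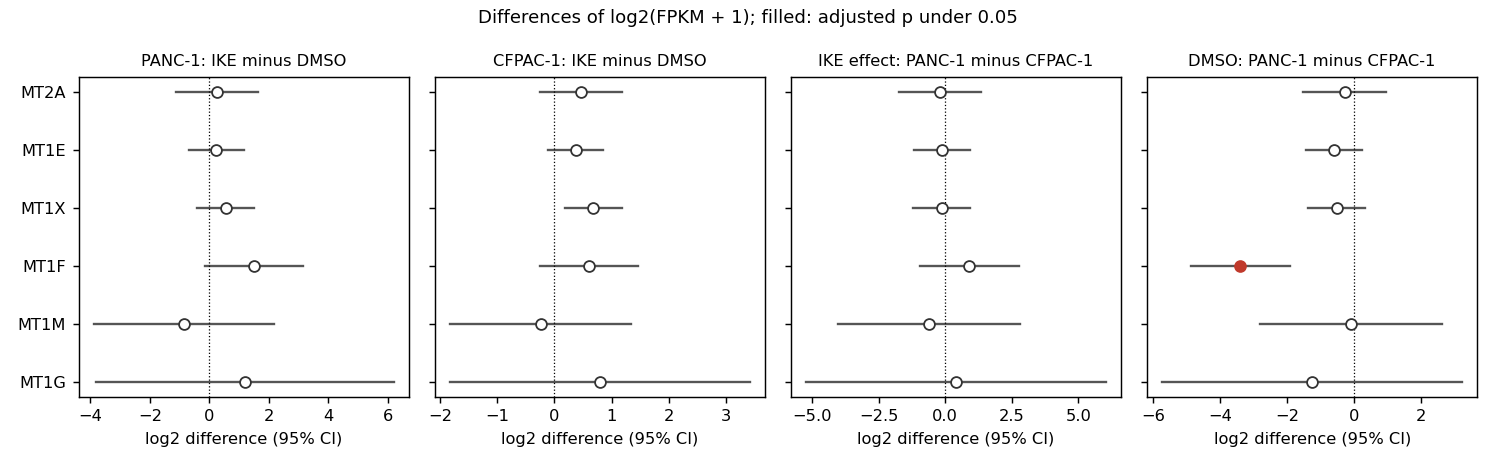
Differences of log2(FPKM + 1) with 95% confidence intervals (horizontal axis, a separate scale for each panel) for each metallothionein in the 4 comparisons, filled where the adjusted p was under 0.05. The only filled point is MT1F between the lines in DMSO, at -3.39, and the intervals of MT1M and MT1G are the widest in every panel.

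MT2A, MT1E and MT1X varied together from library to library. Over the 10 libraries log2(FPKM + 1) of MT2A and MT1E had a Pearson r of 0.896 (permutation p = 0.0008) and a Spearman rho of 0.806 (permutation p = 0.00679). For MT1E and MT1X the values were r = 0.881 (permutation p = 0.0007) and rho = 0.842 (permutation p = 0.00392), and for MT2A and MT1X r = 0.811 (permutation p = 0.00456) and rho = 0.745 (permutation p = 0.0169). Adjusted over these 3 pairs, the two-sided p of r was 0.0012, 0.0012 and 0.00456, in the same order. The 3 pairs are those of the 3 most abundant members. No test was run on the other pairs of members, and the adjustment does not cover the choice of pairs. Without the 2 libraries farthest from the median, r was 0.729, 0.678 and 0.514 (n = 8). Within the 6 PANC-1 libraries r was 0.964 (exact permutation p = 0.00833, 0.0167 adjusted over the 3 pairs), 0.845 (exact permutation p = 0.0111, 0.0167 adjusted) and 0.752 (exact permutation p = 0.075), and CFPAC-1 has too few libraries for a value. The permutations treat libraries of all groups as exchangeable, and the members can share reads and always share the library's scaling. Whether the members are regulated together was not tested.

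Among 10702 other genes averaging 5 FPKM or more, MT1E was the gene most correlated with MT2A and also the gene most correlated with MT1X. Seen from MT1E, MT2A ranked 5 and MT1X ranked 11, behind genes that have no name here, of which the nearest had r = 0.942. MT1F did not follow them closely: its r was 0.642 with MT1E, 0.612 with MT1X and 0.351 with MT2A, and its nearest gene, also unnamed here, had r = 0.979. MT1M had an r of 0.463 with MT2A and of 0.0792 with MT1X, over low values. These correlations are over the same 10 libraries and include the difference between the lines.

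**Figure D5:**
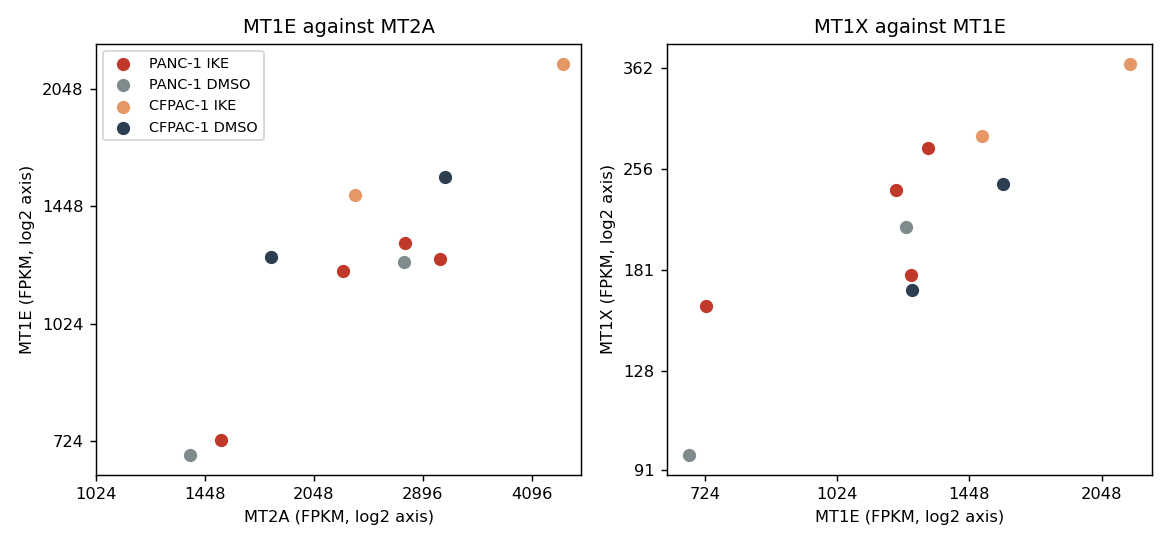
Footprint level of MT1E against MT2A (left) and of MT1X against MT1E (right) in the 10 libraries, in FPKM on log2 axes, coloured by group. Points run from PANC-1 DMSO replicate 2 at the lower left to CFPAC-1 IKE replicate 1 at the upper right, with IKE and DMSO points mixed between them.

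The spread between replicates of the same group was wide for these genes in CFPAC-1. The residual SD of log2(FPKM + 1) there was 0.62 for MT2A, 0.33 for MT1E and 0.32 for MT1X, against a median of 0.12 over the 2092 genes averaging 100 FPKM or more. MT2A's SD was larger than that of 99.1% of those genes, MT1E's than 93.8% and MT1X's than 93.3%. Each of these SDs rests on 2 libraries per group. The members also moved together from library to library, so these shares are not separate observations. In CFPAC-1, replicate 1 had the higher level of MT2A, MT1E, MT1X and MT1F in both groups. Each CFPAC-1 IKE library was also above the same-numbered DMSO library for these members, while MT1M and MT1G went either way. The labels do not pair libraries by replicate number, and how many of all genes have this pattern was not examined. In PANC-1 the SD was 0.52 for MT2A, 0.45 for MT1E and 0.51 for MT1X, against a median of 0.43, and larger than in 68.4%, 53.7% and 65.9% of the same genes. The within-group range of the summed level was 1.86-fold in PANC-1 IKE, 1.92-fold in PANC-1 DMSO, 1.73-fold in CFPAC-1 IKE and 1.54-fold in CFPAC-1 DMSO, each wider than the ratio of the group means within its line.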

How the data were processed

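The authors deposited a single table of FPKM, with a column for every library per the file headers, and no library was pooled. Bowtie2 2.2.8, RSEM and STAR are among the tools in the submitters' processing notes, with GRCh38 as build, but their roles are not stated there. Annotation, strand setting and footprint length filter were not found in the labels.

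The 13125 genes averaging 1 FPKM or more, all 6 members included, were fitted with limma 3.58.1 in R 4.3.3 on log2(FPKM + 1). The model held the 4 groups and 1 variance weight per line (arrayWeights), with trended empirical Bayes moderation, 6 residual degrees of freedom and calls at adjusted p under 0.05. The weights replaced a shared spread because the lines differ in spread. On simulated data with 200 genes changed 8-fold, the weighted fit called 156 of them and 21 unchanged genes in PANC-1. In CFPAC-1 it called 183 of them and 73 unchanged genes. Both counts of unchanged genes are more than the threshold allows. Of 200 genes changed 2-fold it called 0 in PANC-1 and 99 in CFPAC-1, with 0 and 49 unchanged genes. No count test was run, since the values are FPKM. Low values were not whole multiples of a read for enough genes to recover reads, and relative depth came from those that were (50% to 61.7% of 47 to 81 low values per PANC-1 library lay within 0.04 reads of a whole number). The settings of that estimate were loosened after a first result was seen, which changed the depth of PANC-1 IKE replicate 2 by about a factor of 2, so that depth is uncertain. Of 20289 IDs, 0 matched the reference names, so the planned gene lists and markers were not tested.

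All 6 members were named. The planned rule also named the 3 genes most correlated with each member of mean at least 5 FPKM, and unnamed IDs among them are not printed. Correlations used 100000 permutations, or all of them in PANC-1. Motifs were searched by exact letters. Members, lists, comparisons and the test, its weight per line included, were chosen with earlier results of these data known. Alternatives changed pseudocount, filter, weights, normalization, replicate block and libraries.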

Additional observations from a re-analysis of the deposited data

Results flagged for a closer look

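MT1G in PANC-1 IKE replicate 2 stood apart, at 27.5 FPKM where the other 3 PANC-1 IKE libraries were listed at 0. Of 7 sets of values checked in this way (the 6 members and their sum over the 4 PANC-1 IKE libraries) this was the only one marked. The rule marks about 1 in 20 by chance where values follow a normal distribution. It always marks a member listed at 0 in all libraries but 1, so that rate does not apply here. That library had an estimated relative depth of 0.239, which is uncertain because it depended on the settings of the estimate. The part of depth or of reads shared with other members in the MT1G value was not tested.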

How the results depend on the processing

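Across the 22 alternatives no member changed its call in any comparison, except MT1F between the lines in DMSO without PANC-1 DMSO replicate 1. Directions turned in 33 of 512 member values. Many of the 512 could not turn, so this share says little about how stable the directions are. Changing the filter or dropping the weights leaves a fitted value as it is, and so does leaving out a library of the other line for an IKE effect. Values of exactly 0 were counted as not turned. For CFPAC-1 the 46 calls over all genes became 77 with a pseudocount of 5, 1 without weights, 16 with the line alone, 8 with the replicate block, which was fitted to replicates 1 and 2 and so left out PANC-1 IKE replicates 3 and 4, 28 without PANC-1 IKE replicates 2 and 4 together, and 14 to 44 when 1 library was left out (14 without DMSO replicate 1, 28 without DMSO replicate 2 and 24 without IKE replicate 2). For PANC-1 the 0 calls became 1 without the filter, 2 without weights, 2 with the line alone, 1 without IKE replicates 2 and 4 together, 1 with replicates 1 and 2 alone, and 0 to 1 when 1 library was left out. The 3 calls of the difference became 0 with the replicate block, 1 with replicates 1 and 2 alone and 0 to 6 when 1 library was left out. The 4970 calls between the lines ranged from 2868 (without PANC-1 DMSO replicate 1) to 5606 when 1 library was left out. Replicates 1 and 2 alone, without the block, gave 38 calls in CFPAC-1, an alternative added after seeing the data. The log2 ratio of the summed level in PANC-1 ranged from -0.16 to 0.78. The cause of these changes was not tested. With a minimum mean of 5 FPKM, MT1G was not tested.

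Leaving out 1 library turned the sign of uncalled values. The IKE effect in PANC-1 ranged from -0.24 to 0.75 for MT2A, -0.17 to 0.65 for MT1E and -0.013 to 1.11 for MT1X. In CFPAC-1 it ranged from -0.015 to 0.94 for MT2A, -1.25 to 2.85 for MT1G and -1.28 to 0.80 for MT1M. The difference of the effects ranged from -0.70 to 0.28 for MT2A, -0.55 to 0.28 for MT1E, -0.69 to 0.43 for MT1X, -1.64 to 2.45 for MT1G and -1.66 to 0.42 for MT1M. Between the lines in DMSO the ranges were -0.77 to 0.21 for MT2A, -1.07 to 0.050 for MT1X and -0.86 to 0.67 for MT1M. Without PANC-1 IKE replicates 2 and 4 together, MT2A in PANC-1 was -0.068 and the difference for MT1G was -0.80. Quantile normalization gave 0.029 for the difference of MT1E and 0.10 for MT1M between the lines, and library weights gave -0.12 for the difference of MT1G.

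Nothing in the labels says that replicate numbers pair the libraries, and deviations of same-numbered libraries correlated at -0.21 in PANC-1 and 0.05 in CFPAC-1. Each CFPAC-1 group holds the same replicate numbers, so the block cannot change a fitted effect there, and MT2A stayed at 0.46. The limma unadjusted p of MT2A was 0.0441 with the block (adjusted p = 0.383), against 0.218 in the same libraries without it. For MT1F the limma unadjusted p was 0.0177 (adjusted p = 0.311), against 0.117. It was also lower with the block for MT1X and MT1E, and higher for MT1G and MT1M. No member was called in CFPAC-1 with the block. The low values of MT1F, MT1M and MT1G in PANC-1 limit what can be said of them there. So does the shallow depth of the PANC-1 libraries other than IKE replicate 1. That library had an estimated relative depth of 0.876, and MT1M and MT1G were listed at 0 in it as well.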
